A study of Mus musculus with 6 samples.

Results

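The enzymes described here carry squalene to cholesterol. They are the products of 9 genes, Sqle, Lss, Cyp51, Msmo1, Nsdhl, Hsd17b7, Ebp, Sc5d and Dhcr7, taken by symbol from the 55487 genes of the count files. Each symbol stood for 1 gene identifier, and all 9 had enough counts to be tested, so no member was lost to the filter on low counts. RNA sequencing was done on 6 libraries titled as ovarian granulosa cells, which enclose and nourish the oocyte in its follicle. The 3 control libraries are labelled as given PBS and the 3 CPC libraries as given cetylpyridinium chloride, a quaternary ammonium antiseptic, and both groups are labelled mouse and WT. The libraries held 19079345 to 23157541 counts, and the enzymes had 361 to 16695 counts in each. The labels used here state neither dose, duration, strain nor age, nor whether exposure was of animals or of cells. No label ties a replicate to its own animal or culture, and p-values therefore measure library-to-library spread that could be technical.

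The labels go against themselves. SKOV3, an ovarian cancer line of human origin, is entered as cell line in the same records, with GATA4 transfection, while the files hold mouse Ensembl genes located on GRCm38.p6. Of 12 granulosa markers, Inha, Inhba, Foxl2 and Fst were expressed (means of 1719, 4154, 68.9 and 206 CPM in control, where CPM is counts scaled to a common library size with TMM factors), Amh was under 1 CPM in every library and Cyp19a1, the aromatase gene, averaged 0.487 CPM in control and 0.920 CPM in CPC. Of these markers 8 passed as lower in CPC in edgeR's quasi-likelihood test (2 without replicate 1 of both groups) and 0 higher, with 0 higher also by DESeq2, by limma-voom and at an unadjusted p under 0.05. Over all tested genes, 19.7% were lower and 19.6% higher, and without replicate 1 of both groups 1033 of 15025 were lower. The globin genes were at 0 in every library, oocyte markers summed to 4.97 CPM at most, and the theca gene Cyp17a1 was at 0. Of the tested theca and stroma, epithelial and endothelial markers 0 changed by edgeR, also at an unadjusted p under 0.05. Replicate 1 of both groups stood apart in some of these markers. The stromal gene Dcn reached 65.3 CPM in control 1 and 80.8 CPM in CPC 1, against 8.86 to 10.99 CPM in the other libraries. The keratin gene Krt19 had 15.4 and 22.4 CPM there, against 0.451 to 2.59 CPM. Others did not follow: the stromal gene Acta2 was highest in CPC 2 (704.9 CPM). The endothelial gene Pecam1 had the lowest value of each group in replicate 1 (1.495 and 0.942 CPM). Results without replicate 1 of both groups are therefore also without the libraries richest in Dcn and Krt19. Leukocyte markers were called: 10 of 12 were tested and all 10 fell. Their summed level was 199.95, 249.9 and 330.2 CPM without TMM factors in the 3 controls, against 20.9, 14.2 and 38.4 CPM after CPC. The macrophage lysozyme gene Lyz2 made up most of that sum in the controls, at 164, 207 and 283 CPM, and had 6.90, 5.42 and 20.7 CPM in CPC 1 to 3. The T cell gene Cd3e was under 1 CPM in every library. These leukocyte values and the granulosa values stand beside every result that follows, and their part in it was not tested. In bulk RNA, fewer cells of a type and less RNA per cell cannot be told apart.

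As background, cholesterol is built from acetyl-CoA through mevalonate to squalene, and the steps after squalene take place in the endoplasmic reticulum membrane. Squalene is oxidised and folded into lanosterol, which then loses methyl groups, has a ring double bond moved and is reduced to cholesterol. Most genes of the route are switched on together by SREBP2, a transcription factor released from the endoplasmic reticulum when membrane sterol is low, which binds sterol regulatory elements in promoters together with the CCAAT-binding factor NF-Y and with SP1. In the ovary, cholesterol is the precursor of steroid hormones, and the lanosterol derivatives made just after the CYP51 step are known as meiosis-activating sterols for their effect on oocytes.

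The comparison asked whether CPC exposure changed the transcripts of each step between squalene and cholesterol. All 9 enzymes were lower in CPC, by 1.98-fold for Sqle to 4.86-fold for Nsdhl, and 0 were higher, with 0 higher also by DESeq2, by limma-voom and at an unadjusted p under 0.05. Under the same edgeR quasi-likelihood fit, with p adjusted by Benjamini-Hochberg, 19.7% of all 15000 tested genes were lower in CPC and 19.6% higher. Members lower by at least 2-fold numbered 8 of 9, where 8.10% of tested genes were called at that size. The median log2 change was -1.89 over the 9 enzymes and -0.003 over all tested genes. For each of the 9, the lowest control library was above the highest CPC library, as was the case for 26.8% of tested genes, while 26.7% lay wholly above. Together the 9 transcripts took 1549.8, 1402 and 2104 CPM (without TMM factors) in the controls, against 530.3, 526 and 578 CPM in the CPC libraries. Without replicate 1 of both groups, 7 of 9 were called lower, beside 1033 of all 15025 genes tested in that fit.

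**Figure D1:**
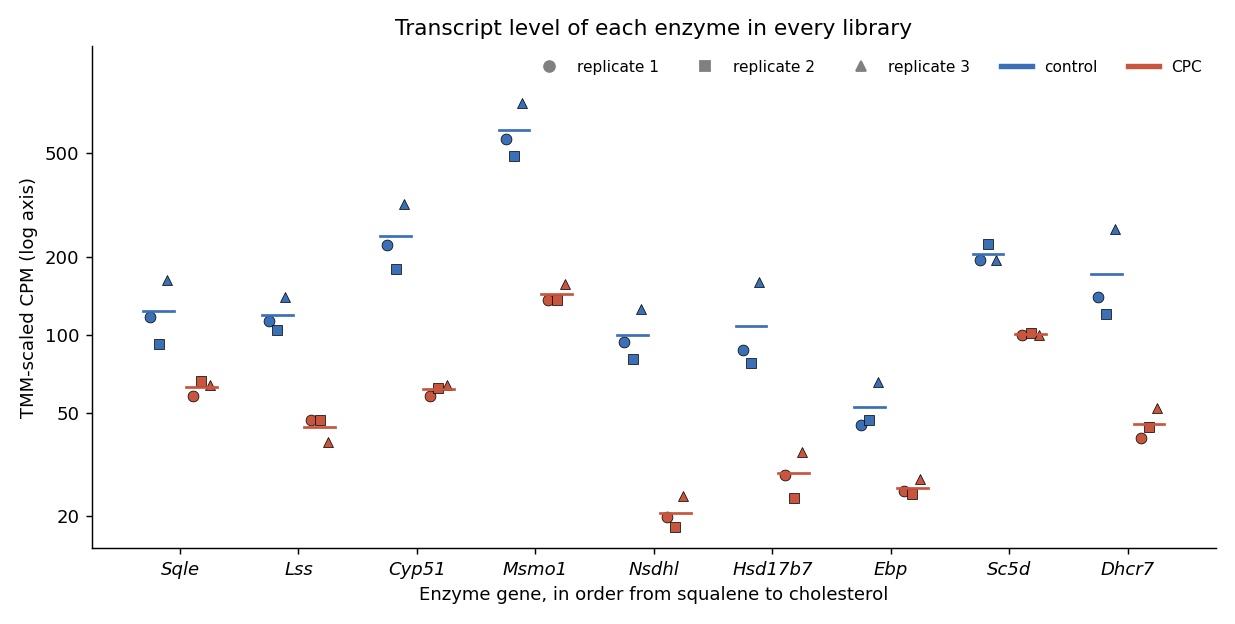
TMM-scaled CPM (log axis) of the 9 enzyme genes in order from squalene to cholesterol, 1 point per library, with a line at the mean of each group of 3. Each control point lies above each CPC point of the same gene, and Msmo1 is the most abundant, at 491 to 785 CPM in control and 136 to 157 CPM in CPC.

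The pathway opens with SQLE, squalene monooxygenase, which adds the first oxygen and is a rate-limiting step. Its gene (ENSMUSG00000022351; chromosome 15, 59315077 to 59331192 on GRCm38.p6, as for all locations here) had 118, 91.7 and 162 CPM in control 1 to 3 and 57.8, 66.2 and 63.7 CPM in CPC 1 to 3. The CPC libraries lay close together, while control 3 was well above control 2. Sqle fell by 0.98 on the log2 scale (standard error 0.20; 95% interval -1.46 to -0.51; edgeR adjusted p = 0.00962). This was the smallest point estimate of the 9, but it differed little from Ebp and Sc5d, and without control 2 the change of Sqle (-1.16) was larger than those of Ebp (-1.10) and Sc5d (-0.96). Its call was lost without replicate 1 of both groups (edgeR adjusted p = 0.0861). Within pairs of equal replicate number the log2 change was -1.02, -0.47 and -1.35.

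LSS, lanosterol synthase, folds oxidosqualene into the ring system of lanosterol. Lss (ENSMUSG00000033105; chromosome 10, 76531588 to 76557138) had 113, 104 and 139.7 CPM in control and 46.9, 46.9 and 38.5 CPM in CPC. The groups were far apart relative to their spread, and CPC 3 lay below the other CPC libraries. It fell 2.70-fold (log2 change -1.43 ± 0.13, standard error; edgeR adjusted p = 5.17e-04).

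CYP51, the lanosterol demethylase, is a cytochrome P450 and makes the first of the meiosis-activating sterols. Cyp51 (ENSMUSG00000001467; chromosome 5, 4081145 to 4104746) had 221, 179.9 and 318 CPM in control and 58.0, 62.5 and 64.0 CPM in CPC. The highest CPC library held 35.6% of the lowest control library. Cyp51 fell 3.90-fold (log2 change -1.96 ± 0.21, standard error; edgeR adjusted p = 0.001001). Its last exon shares 166 bases with Akap9 on the other strand, 3.76% of its exon bases, and no source states whether strand was used in counting. Akap9 itself averaged 148 ± 12.99 CPM in control against 152 ± 8.04 CPM in CPC (SD, n = 3; edgeR adjusted p = 0.753).

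The next step, reduction of the new ring double bond, is done by the products of 2 genes that stand outside the 9. Tm7sf2 had 26.6, 23.0 and 41.0 CPM in control and 9.77, 7.93 and 12.4 CPM in CPC, a 3.002-fold fall (edgeR adjusted p = 0.00424, and 0.0504 without replicate 1 of both groups). Lbr encodes a protein with the same reductase activity that also anchors chromatin at the nuclear lamina. It had 26.3, 34.6 and 29.6 CPM in control and 27.5, 32.4 and 24.9 CPM in CPC, overlapping groups with a log2 change of -0.09 (95% interval -0.42 to 0.23; edgeR adjusted p = 0.620). The log2 ratio of Lbr to Tm7sf2 CPM was -0.02, 0.59 and -0.47 in control and 1.496, 2.03 and 1.003 in CPC. That difference of 1.48 gave p = 0.1 in an exact two-sided permutation test, the smallest p that 3 libraries against 3 allow. The groups did not overlap in this ratio, as was the case for 51.5% of all pairs of tested genes with a count in every library. This pair was outside the planned ratios, which covered only neighbours among the 9 enzymes.

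Removal of the pair of methyl groups at carbon 4 is shared by 3 enzymes, and the first 2 of them had the largest falls of the 9. MSMO1, its oxidase, NSDHL, its decarboxylating dehydrogenase, and HSD17B7, its ketoreductase, act in turn. Msmo1 (ENSMUSG00000031604; chromosome 8, 64718139 to 64733792) had 568, 491 and 785 CPM in control and 136, 136 and 157 CPM in CPC, so that the highest CPC library held 31.9% of the lowest control. It fell 4.29-fold (log2 change -2.10 ± 0.18, standard error; edgeR adjusted p = 4.41e-04). Nsdhl (ENSMUSG00000031349; chromosome X, 72918557 to 72958514) had 93.6, 80.3 and 126 CPM in control and 19.7, 18.1 and 23.8 CPM in CPC. It had the largest fall of the 9, 4.86-fold (95% interval of the log2 change -2.73 to -1.83; edgeR adjusted p = 4.41e-04), and its 3 paired log2 changes were close to each other at -2.25, -2.15 and -2.40.

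HSD17B7 was first described as a protein bound to the prolactin receptor and can also reduce estrone to estradiol. Its gene (ENSMUSG00000026675; chromosome 1, 169949535 to 169969241) had 87.4, 77.4 and 159 CPM in control and 28.7, 23.5 and 35.4 CPM in CPC. Control 3 stood well above the other controls, and the standard error was the largest of the 9. Hsd17b7 fell 3.70-fold (log2 change -1.89 ± 0.31, standard error; edgeR adjusted p = 0.00562), and without replicate 1 of both groups the adjusted p was 0.0524. Erg28, the gene of a scaffold that holds the complex together, had 48.4, 45.5 and 47.3 CPM in control and 33.5, 32.7 and 39.9 CPM in CPC, a 1.33-fold fall (edgeR adjusted p = 0.0142) that no longer passed when control 1, CPC 1 or CPC 2 was left out.

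EBP, the sterol isomerase, moves the ring double bond toward its place in cholesterol. Ebp (ENSMUSG00000031168; chromosome X, 8185329 to 8193512) was the least abundant of the 9 in control CPM, with 44.9, 47.1 and 65.4 CPM in control and 25.02, 24.3 and 27.8 CPM in CPC. It fell 2.04-fold (log2 change -1.03 ± 0.15, standard error; edgeR adjusted p = 0.00256). SC5D, the lathosterol oxidase, then introduces a second ring double bond. Sc5d (ENSMUSG00000032018; chromosome 9, 42251595 to 42264256) had 194, 223 and 195 CPM in control and 99.7, 102 and 99.4 CPM in CPC. Both groups were tight, and the fall of 2.03-fold had the smallest standard error (log2 change -1.02 ± 0.077) and the smallest adjusted p of the 9 (edgeR, 2.70e-04).

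DHCR7, the dehydrocholesterol reductase whose loss in humans causes Smith-Lemli-Opitz syndrome, reduces the ring double bond that remains to be removed and yields cholesterol. Dhcr7 (ENSMUSG00000058454; chromosome 7, 143823145 to 143848410) had 139.5, 121 and 256 CPM in control and 40.0, 44.0 and 52.3 CPM in CPC. Control 3 again stood above the other controls. Dhcr7 fell 3.79-fold (log2 change -1.92 ± 0.30, standard error; edgeR adjusted p = 0.00489).

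**Figure D2:**
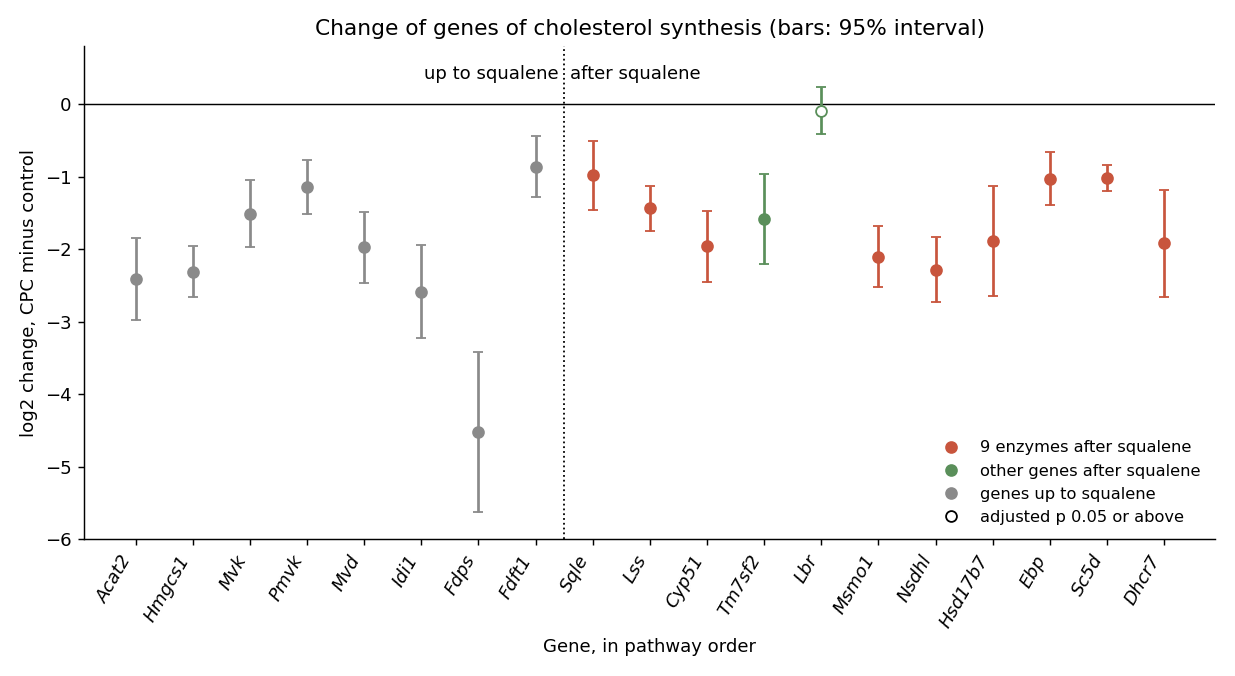
Log2 change (CPC minus control) of cholesterol synthesis genes in pathway order, with 95% intervals from the edgeR fit over all genes; filled points passed an adjusted p of 0.05. Changes after squalene run from -0.98 for Sqle to -2.28 for Nsdhl, back to -1.02 for Sc5d, and to -1.92 for Dhcr7 at the end. Lbr is at -0.09.

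Because the 9 genes changed in the same direction, their promoters were read for shared letters. RefSeq windows on GRCm38.p6, from 250 bases before to 50 after a transcription start, held 8 of the 9 genes, all but Sqle, and were searched on both strands. The sterol regulatory element, written TCACNCCAC, was in 0 of 8 members, beside 1.44% of all genes in the table. The looser TCACNNCA, which was chosen after these promoters had been read and so is a description only, was in 6 of 8 (Cyp51, Msmo1, Nsdhl, Hsd17b7, Sc5d and Dhcr7), beside 15.7% of all genes and 13.3% of the tested genes. CCAAT, the NF-Y motif, was in 8 of 8, beside 41.1% of all and 42.9% of tested genes. GGGCGG, the core of an SP1 site, was in 8 of 8, beside 38.2% and 68.8%, and the E-box CANNTG was in 6 of 8, beside 75.0% and 67.2%. CCAAT and GGGCGG were not particular to these enzymes. Of 6 genes up to squalene with a window, 5 held CCAAT, 5 held GGGCGG and 2 held TCACNNCA. Tm7sf2 and Lbr, which act after squalene but stand outside the 9, both held CCAAT and GGGCGG, and neither held TCACNNCA. Dhcr7 has 3 windows in the table and so more letters to match. Its window at the start of a principal transcript in GENCODE M21 held 0 TCACNNCA and 0 CCAAT. Its matches to both came from windows whose RefSeq starts lay 232 and 137 bases past the nearest such start. For Msmo1 all matches to TCACNNCA, CCAAT and GGGCGG lay downstream of the principal start, as did the only CCAAT of Cyp51. A match is a run of letters and not a measured binding site.

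Promoter stretches are shown for 3 members that hold TCACNNCA (Cyp51, Hsd17b7 and Sc5d) and for Ebp, which does not. Each begins 200 bases before the RefSeq start and ends there or at the gene's first exon in GENCODE M21, and reads 5′ to 3′ on the gene's strand. Capitals mark TCACNNCA and CCAAT or its reverse complement, ATTGG. The cut at the first exon leaves out the only CCAAT of Cyp51 (-29 to -25) and 1 ATTGG of Hsd17b7 (-12 to -8). The stretches are Cyp51 at chr5:4104747-4104897, minus strand, Hsd17b7 at chr1:169969242-169969405, minus strand, Sc5d at chr9:42264301-42264500, minus strand, and Ebp at chrX:8193513-8193712, minus strand.
Cyp51: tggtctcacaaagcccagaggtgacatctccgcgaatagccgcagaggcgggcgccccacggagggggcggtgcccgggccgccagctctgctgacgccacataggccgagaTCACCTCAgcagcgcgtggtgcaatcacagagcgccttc
Hsd17b7: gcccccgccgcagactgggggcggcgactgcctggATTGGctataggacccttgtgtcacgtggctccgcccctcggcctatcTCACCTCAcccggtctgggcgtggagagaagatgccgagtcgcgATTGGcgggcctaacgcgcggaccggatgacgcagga
Sc5d: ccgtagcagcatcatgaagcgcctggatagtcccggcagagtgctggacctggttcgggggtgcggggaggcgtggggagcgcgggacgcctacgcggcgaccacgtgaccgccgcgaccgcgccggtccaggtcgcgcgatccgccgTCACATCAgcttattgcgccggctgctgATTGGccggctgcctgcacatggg
Ebp: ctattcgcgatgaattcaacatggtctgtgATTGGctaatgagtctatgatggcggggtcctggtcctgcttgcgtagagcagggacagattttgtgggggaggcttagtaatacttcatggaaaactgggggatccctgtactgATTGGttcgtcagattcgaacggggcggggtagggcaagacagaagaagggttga
Cyp51 and Hsd17b7 held the same 8 letters, TCACCTCA, from -88 to -81 and from -117 to -110 relative to the start. Sc5d held TCACATCA from -52 to -45, followed by ATTGG from -24 to -20. Ebp held ATTGG at -170 and at -55 with no TCACNNCA between them. Sc5d and Ebp had nearly the same fall, about 2-fold, while Cyp51 and Hsd17b7 fell 3.90-fold and 3.70-fold. Whether the letters bear on the size of the fall was not tested.

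The estimated fall differed along the route. Sqle, Ebp and Sc5d were about 2-fold lower, Lss was 2.70-fold lower, and the other 5 were 3.70-fold to 4.86-fold lower. The difference between steps was examined as the log2 ratio of neighbouring enzymes within each library, since such a ratio is free of library scaling. In 7 of 8 neighbouring pairs the ratios of the control and CPC libraries did not overlap, as was the case for 51.5% of all pairs of tested genes with a count in every library. The exact two-sided permutation test gave p = 0.1 for each of these 7, the smallest p possible with 3 against 3 (0.114 with Benjamini-Hochberg adjustment over the 8 pairs), so none could pass 0.05. The log2 ratio of Ebp to Hsd17b7, in CPM per kilobase of exon, was 0.44, 0.69 and 0.12 in control and 1.21, 1.46 and 1.06 in CPC. For Dhcr7 against Sc5d it was 0.29, -0.12 and 1.16 in control and -0.55, -0.44 and -0.16 in CPC, where control 2 came nearest to the CPC libraries. For Sc5d against Ebp the groups overlapped, with a mean log2 ratio of 0.52 ± 0.36 in control and 0.51 ± 0.12 in CPC (SD, n = 3; exact permutation p = 1).

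Levels of different enzymes compare only per length, here as CPM per kilobase of the exon length given in the files. Msmo1 was first in all 6 libraries, at 301 ± 74.6 in control and 70.0 ± 5.79 in CPC (SD, n = 3). Dhcr7 and Cyp51 came next in control at 61.1 ± 26.1 and 61.0 ± 18.05, followed by Nsdhl at 46.1 ± 10.8, Sqle at 44.9 ± 12.9 and Sc5d at 42.6 ± 3.51. Much of the SD is shared between enzymes, and within every control library Cyp51 was above both Nsdhl and Sqle. Ebp at 30.1 ± 6.47, Hsd17b7 at 23.4 ± 9.67 and Lss at 17.0 ± 2.63 were lowest. In CPC, Sqle (22.7 ± 1.57) and Sc5d (20.95 ± 0.263) ranked just after Msmo1 in every library, and Nsdhl had dropped to seventh, at 9.47 ± 1.35. Msmo1 made up 48.0% ± 0.594 of the summed per-length level of the 9 in control and 38.4% ± 0.829 in CPC, while Sqle went from 7.12% ± 0.463 to 12.5% ± 0.920. These places and shares depend on the length used, and with merged lengths Msmo1 made up 29.6% in control and 22.2% in CPC. With merged GENCODE M21 exons Msmo1 was 3.01 times longer and Sqle 2.01 times, Msmo1 stayed first in both groups at 100.04 and 23.3, and Sc5d stood above Sqle (41.9 against 22.3 in control).

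**Figure D3:**
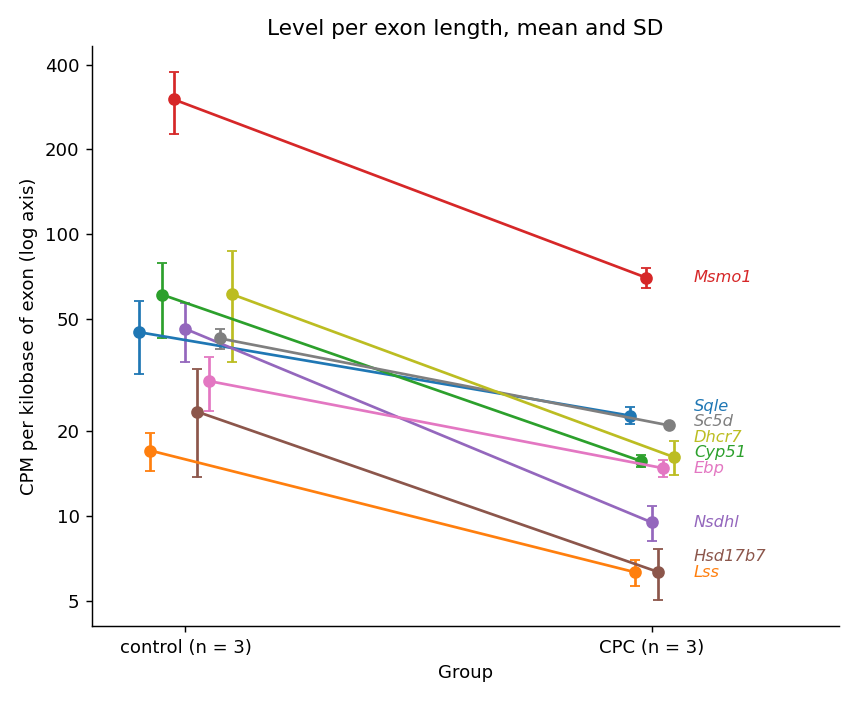
CPM per kilobase of exon (log axis) of the 9 enzymes, mean and SD of 3 libraries a group. Msmo1 lies above the other 8 in both groups, and lines of Sqle, Ebp and Sc5d are flatter than those of Nsdhl, Cyp51 and Dhcr7.

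Among the controls most enzymes deviated in the same direction in a given library. Control 3 was the highest control for 8 of 9 enzymes, and control 2 was the lowest for 7. Averaged over the 9, log2 CPM deviated from the control mean by -0.12, -0.26 and 0.38 in control 1 to 3. The deviations of Hsd17b7 and Dhcr7 were the largest, at 0.63 and 0.65 in control 3, and Sc5d stood apart with 0.13 in control 2 and -0.06 in control 3. In CPC the spread was smaller, with mean deviations of -0.05, -0.05 and 0.10, and the enzymes moved less alike: CPC 3 was the highest for 6 of 9, and Lss had its lowest value there, at -0.19. Leaving out control 3 gave the smallest falls of 8 of the 9, all but Sc5d, with a median log2 change of -1.498 over the 9, and none of the 9 lost its call without any 1 of the 6 libraries (edgeR adjusted p up to 0.0364, for Sqle).

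**Figure D4:**
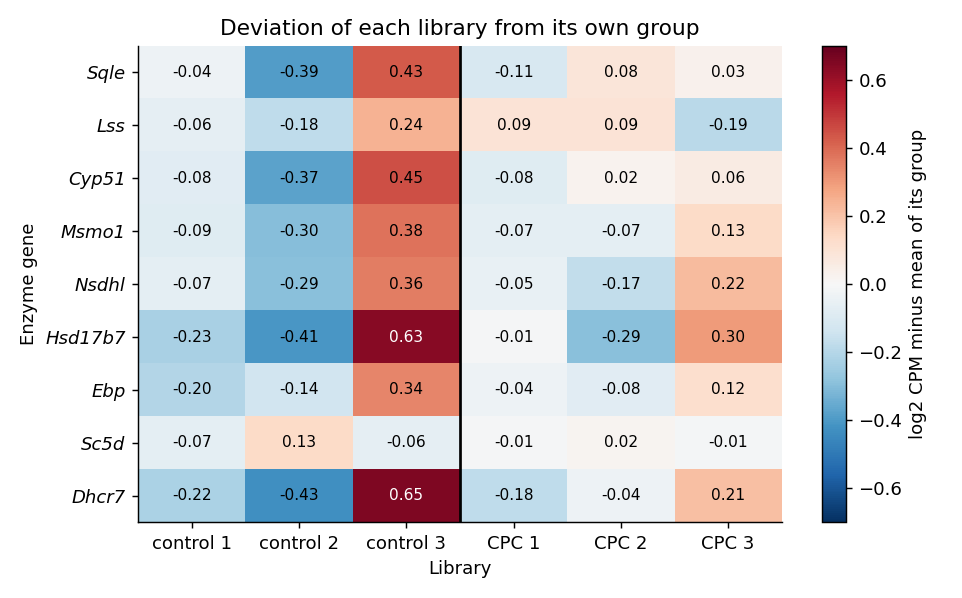
Deviation of log2 CPM from the mean of its own group for each enzyme (rows) and library (columns). Control 3 is above its group mean for all enzymes but Sc5d, up to 0.65 for Dhcr7, and control 2 is below it for all but Sc5d.

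Some of these enzymes need electrons from partner proteins, and the genes of those partners were measured beside them. POR, cytochrome P450 reductase, feeds SQLE and CYP51, and Por had 114, 119 and 135 CPM in control and 99.5, 98.7 and 116 CPM in CPC (log2 change -0.23; edgeR adjusted p = 0.0989, and 0.0113 with a replicate block). MSMO1 and SC5D draw on cytochrome b5 and its reductase. The reductase gene Cyb5r3 had 261, 241 and 269 CPM in control and 130.3, 116 and 122 CPM in CPC, a 2.10-fold fall (edgeR adjusted p = 2.43e-04). Of the cytochrome genes, Cyb5a fell 1.41-fold (edgeR adjusted p = 0.0266, lost without control 1, control 2, CPC 1 or CPC 3), and Cyb5b had a log2 change of -0.35 (edgeR adjusted p = 0.0533, and 0.00269 with the block). In all, 3 of 6 partner genes, a list that also held Erg28 and Pgrmc1, fell and 0 rose by edgeR (0 also at an unadjusted p under 0.05, by DESeq2 and by limma-voom). Without control 1 or CPC 1, 1 of 6 fell, and with the replicate block 5 did. Over all genes, 2954 of 15000 were lower in the main fit, 2047 of 15378 without control 1 and 4178 of 15000 with the block.

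The genes that make squalene fell in the same libraries: 9 of 9 were lower, with a median log2 change of -1.97, and 8 were without replicate 1 of both groups. Over all tested genes, 19.7% were lower in the main fit, and 1033 of 15025 were without replicate 1 of both groups. Hmgcs1, the synthase before the mevalonate step, had 577, 562 and 776 CPM in control and 117, 141 and 128 CPM in CPC (4.97-fold lower). Acat2, the first thiolase, fell 5.32-fold. Fdps was 23.0-fold lower, at 15.6 ± 6.08 and 0.676 ± 0.363 CPM (SD, n = 3), but has near-identical copies, so its count is uncertain. Fdft1, whose product joins 2 farnesyl units into squalene and so stands directly before SQLE, fell 1.82-fold (edgeR adjusted p = 0.00962, and 0.0816 without replicate 1 of both groups).

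Of 10 genes of the SREBP system, 9 were tested, 5 fell and 1 rose, beside 19.7% lower and 19.6% higher over all tested genes. Srebf2, which encodes SREBP2, had 166, 160.0 and 202 CPM in control and 139.9, 148 and 150.0 CPM in CPC, a log2 change of -0.27 that did not pass (edgeR adjusted p = 0.0648, and 0.0155 with the replicate block). Insig1, whose product retains SREBP in the endoplasmic reticulum and which is itself an SREBP target, had 63.4, 59.2 and 75.2 CPM in control and 19.3, 19.3 and 19.9 CPM in CPC. Scap, the escort of SREBP, fell 2.07-fold and Stard4, a sterol carrier, fell 3.94-fold. The 1 rise, Mbtps2, a protease that releases SREBP, was 1.21-fold (edgeR adjusted p = 0.0185) and was lost without control 1 or control 2.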

How the data were processed

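RNA from 3 control and 3 CPC libraries was sequenced from a SMARTER mRNA-seq library kit, per the labels' protocols. The authors deposited 1 table a library with whole-number read counts per gene, exon length and gene location. The values are raw counts by their form, and per the file headers the locations are on GRCm38.p6. The submitters' processing notes name Bowtie2, RSEM and hg19, which is a human build, while the deposited genes are mouse. RSEM estimates are rarely whole, so the counter, build and strand setting behind these counts are uncertain. The 9 members and all gene lists were chosen with earlier results of these data known.

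Counts were tested with edgeR 4.0.16 (R 4.3.3; filterByExpr, TMM factors, robust quasi-likelihood fit, Benjamini-Hochberg adjustment over 15000 tested genes, threshold 0.05) with group as the only term. Alternatives were DESeq2 1.42.0, limma-voom (limma 3.58.1), RLE factors, library size alone, no filter, a minimum of 5 CPM in 3 libraries, a replicate block and left-out libraries. The fitting code was tested on simulated data. The omission of same-numbered libraries together, merged exon lengths and TCACNNCA were added after the data had been seen. Replicate numbers come from the titles, and no label says what they share. Across genes, libraries' departures from their group mean had correlations of 0.626, 0.576 and 0.596 for equal numbers. For unequal numbers they were -0.342 to -0.238. Departures within a group sum to 0, so the negative values are not a separate result. Equal numbers were taken as pairs in the replicate block, the paired log2 changes and the omission of same-numbered libraries. The main fit did not use them.

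Text names all members, up to 4 genes of each other list with the smallest adjusted p, and Srebf2 and Insig1 whatever their values; some genes the rule names are not reported here. It also names the 10 genes outside the lists most correlated with the members' mean. Fdft1, Idi1, Por, Pgrmc1, Mbtps2, Mylip and Akap9 were named after their values were seen. So were the granulosa genes Inha, Foxl2, Amh and Cyp19a1, the markers Lyz2, Dcn, Krt19, Acta2 and Pecam1, and the markers at or near 0. Sums of CPM over a list use library totals without TMM factors.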

Additional observations from a re-analysis of the deposited data

How the results depend on the processing

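All 9 enzymes were called lower with DESeq2, limma-voom, RLE factors, library size alone, no filter, the minimum of 5 CPM, the replicate block and each single library left out. With library size alone 2460 genes were lower and 3586 higher. Under the replicate block, 4178 genes were lower and 3978 higher, all 9 enzymes stayed called (largest adjusted p 0.00709, for Sqle), and among the pathway genes refitted under it the calls of Por, Cyb5b, Srebf2 and Ebpl (adjusted p = 0.0125) changed. Calls were lost when replicate 1 was left out of both groups, chosen after seeing the data: Sqle had a log2 change of -0.97 (adjusted p = 0.0861) and Hsd17b7 of -2.01 (adjusted p = 0.0524), with 2 libraries a group. Over all left-out libraries and pairs, the genes lower numbered 1033 to 2576 and those higher 928 to 2613 (1932 without control 1). Without replicate 1 of both groups they were 1033 and 928, and without replicate 2 of both 1650 and 1736. The log2 change of Sqle lay between -1.19 and -0.74, that of Hsd17b7 between -2.08 and -1.50, and the median of the 9 between -2.08 and -1.50 (-1.50 without control 3, -1.63 without replicate 3 of both groups). With single libraries left out, Lbr, at -0.09, lay between -0.188 (without CPC 2) and 0.0146 (without control 2), where its sign turned. The 5 CPM minimum left 3 leukocyte calls, since fewer of those genes were tested. The cause of the other shifts was not tested. A design of 3 libraries a group cannot give an exact permutation p under 0.1, and the contradictory labels leave the source of the cells uncertain.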

Other observations

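Some genes of sterol export and sensing were lower. Of 5 LXR-related genes, 3 were lower in CPC and 0 higher by edgeR (0 also at an unadjusted p under 0.05, by DESeq2 and by limma-voom). Over all tested genes the shares were 19.7% lower and 19.6% higher. Abca1, which loads cholesterol onto apolipoprotein A-I, had 176, 204 and 132 CPM in control and 78.3, 73.0 and 61.9 CPM in CPC, a 2.40-fold fall (edgeR adjusted p = 0.00200). It was lowest in control 3 among the controls, where none of the 9 enzymes was lowest. Abcg1, a second sterol exporter, had 9.13, 10.7 and 9.64 CPM in control and 3.64, 3.16 and 2.98 CPM in CPC (3.01-fold lower; edgeR adjusted p = 6.90e-04). Nr1h3, which encodes LXR alpha, fell 3.66-fold (edgeR adjusted p = 0.0176, lost without control 1 or CPC 1). Nr1h2, which encodes LXR beta, had a log2 change of 0.12 (edgeR adjusted p = 0.387), and Mylip, whose product degrades lipoprotein receptors, one of -0.009 (edgeR adjusted p = 0.983).

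The 10 genes outside the lists whose log2 CPM followed the members' mean most closely over the 6 libraries, among 10317 genes, were Sdc1, Rnd2, Glyr1, Ift20, Slc12a8, Aldh3b1, Podnl1, Urm1, Lrp8 and Spag1 (Pearson r of 0.996 to 0.998). The 6 libraries form 2 groups, so r mostly reads the group difference. Among the listed genes, Idi1, the isomerase of the isoprenoid steps, had r of 0.999. Sdc1, a heparan sulphate proteoglycan of the cell surface, had 545, 472 and 715 CPM in control and 202, 198 and 236 CPM in CPC. Slc12a8, a transporter gene, had 24.8, 19.1 and 37.8 CPM in control and 2.61, 2.71 and 3.26 CPM in CPC, with control 3 the highest control in both.

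Of the relatives of the enzymes by sequence, 2 were tested and 1 was lower, beside 19.7% of all tested genes. Ebpl, a paralogue of Ebp, had 21.5, 17.6 and 21.3 CPM in control and 15.2, 14.05 and 18.04 CPM in CPC (log2 change -0.35; edgeR adjusted p = 0.0725, and 0.0125 with the replicate block). Ch25h, which makes an oxysterol from cholesterol and belongs to the same hydroxylase family as Msmo1 and Sc5d, fell 2.60-fold from a low level of 2.09 CPM (edgeR adjusted p = 0.0191, lost without control 1, control 3, CPC 2 or CPC 3). Agmo was under 1 CPM in every library. Of 3 luteal markers 2 were tested, and both fell, beside the same 19.7%. The third, Lhcgr, was too low to be tested, at 1.13 CPM or less. Prlr, the prolactin receptor gene, averaged 153 CPM without and 27.1 CPM with CPC (edgeR adjusted p = 6.18e-04). Akr1c18, which inactivates progesterone, had 8.86, 5.54 and 32.7 CPM in the controls, control 3 by far the highest, and 0.857, 0.502 and 1.21 CPM after CPC (edgeR adjusted p = 0.0103).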
